A study of Mus musculus with 9 samples.

Results

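Mouse LSK cells that had been transduced with wild-type DNMT3A were compared with LSK cells transduced with the empty vector. LSK cells are the lineage-negative bone marrow fraction with Ly6a (the Sca antigen) and Kit at the surface, and hold the blood stem cells and the earliest multipotent progenitors. The comparison used 6 of the 9 arrays of the series, 3 labelled as wild type (WT) and 3 labelled as empty vector (EV), chosen by sample title. The other 3 arrays, of cells transduced with the R882H mutant (a histidine in place of an arginine), entered the shared estimate of the spread and are set beside the genes that are named. In all 3 groups, per the labels, the cells came from transplanted C57BL/6 mice, were sorted as GFP-labelled LSK cells, and gave RNA that was amplified from 3.67 ng before labelling with 1 dye. The promoter that drove the transgene, the species of the DNMT3A cDNA, the age of the mice, the time after transplantation and whether mice were pooled are not stated in the labels. Nothing in the labels says that the 3 samples of a group came from separate mice or transductions, so p-values cover only how far these samples vary, and that variation may be technical.

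DNMT3A is a de novo DNA methyltransferase: it adds methyl groups to cytosines of CpG dinucleotides that carried none, whereas DNMT1 copies the existing pattern after replication with the help of UHRF1. The TET enzymes oxidise methylated cytosine, and TDG removes the products. In blood stem cells, loss of Dnmt3a is known to favour self-renewal over differentiation, and DNMT3A is among the genes most often mutated in acute myeloid leukaemia. The comparison of WT with EV asks what additional normal enzyme did to the transcriptome of these cells.

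Each array carried 55681 non-control probes. Between 53.4% (EV replicate 2) and 64.8% (WT replicate 2) of them were well above background on the 6 arrays, with no saturated probe. Signals are log2 values, with 0 at the 75th percentile of each array. Kit, Ly6a, Cd34 and Flt3 were well above background on all 6 arrays. Cd8a and Ms4a1, which mark T cells and B cells, were above background on none of them. Slamf1, a stem cell surface receptor, was above background on 2 of 3 EV arrays and 1 of 3 WT arrays. Cd3e, Cd4 and Itgam had a probe above background on all 6 arrays although they are lineage genes, and the part of cross-hybridisation or of other cells in that was not tested.

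The sources disagreed on which array belonged to which group. The authors' deposited value table held, under 7 of 9 sample names, the values of another sample's array, and for 4 of these the array was of another group by the scanner files. The column named WT replicate 1 held the EV replicate 3 array, the column named EV replicate 3 held the WT replicate 1 array, the column named WT replicate 2 held the R882H replicate 1 array, and the WT replicate 3 array stood under R882H replicate 3. Of the 6 arrays, EV replicates 1 and 2 and WT replicate 2 had the same group in both sources. The values of that table nearly matched the log2 signals used here less each probe's median over the 9 arrays. The median absolute difference of a column was 0.00054 to 0.0032. Centring a probe leaves its group differences as they were, so use of that table changes mainly the grouping. The groups used here are those of the scanner files, so WT and EV below mean the libraries labelled so there. EV replicate 3 and WT replicate 3 also stood apart from the rest: on the first principal component of all 9 arrays, which held 29.8% of the variance, they lay at -48.7 and -30.9 and the other 7 arrays between -9.51 and 26.8. The 3 EV arrays and WT replicate 1 were on 1 slide, and WT replicates 2 and 3 were on another that held no EV array. For those 2 arrays slide and group cannot be told apart, and the comparison within a slide is that of WT replicate 1 with the 3 EV arrays. R882H replicates 1 and 2 were on the slide of WT replicates 2 and 3, and R882H replicate 3 was on a further slide. No R882H array shared a slide with EV, so for R882H against EV slide and group cannot be told apart.

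No gene passed the test. Of 12627 genes with a probe well above background on all 3 arrays of WT or of EV, 0 (0.0%) had an adjusted p under 0.05 in limma with Benjamini-Hochberg adjustment, and the smallest adjusted p was 0.203. An unadjusted p under 0.05 was reached by 756 genes (5.99%), of which 436 (3.45%) were higher and 320 (2.53%) lower with WT. The 3 WT values lay all above or all below the 3 EV values for 1282 genes (10.2%), 711 (5.63%) above and 571 (4.52%) below. The median standard error of a difference was 0.228 on the log2 scale. Without WT replicate 3 the unadjusted count was 1262, with the replicate number as a block the count of lower genes was 504, with the arrays whose group is the same in both sources the unadjusted count was 1171, and with the value table it was 519. With array median scaling the split turned to 300 higher and 409 lower, and that of genes without overlap to 468 above and 788 below. The count of genes past the adjusted threshold was 0 under each of 21 alternative settings. All genes named below missed the adjusted threshold, and their differences are given as values with standard errors.

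Dnmt3a itself was read by 1 probe, well above background on all 9 arrays. It stood at 1.18, 1.48 and 0.56 on the EV arrays and at 1.45, 1.84 and 0.49 on the WT arrays. The lowest values of both groups were those of replicate 3, and the groups overlapped. WT minus EV was 0.18 ± 0.36 (SE, n = 3 per group; adjusted p = 0.926, limma), a 1.14-fold difference. The direction turned without EV replicate 3 (-0.07), without WT replicate 2 (-0.11) and with the value table (-0.01). Whether the probe matches the transduced cDNA was not tested, so it neither checks the labels nor measures the amount of transgene.

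Among the other methyltransferases, Dnmt1 was lower with WT on every array. It stood at 1.54, 1.48 and 1.63 with EV and at 1.30, 1.09 and 1.18 with WT, a difference of -0.36 ± 0.15 (adjusted p = 0.803). Dnmt3b, the second de novo enzyme, gave 0.38 ± 0.31 at its brightest probe, while the other two probes of the gene gave -0.25 and -0.34, so its direction depends on the probe. Uhrf1 likewise gave 0.36 at one probe and -0.26 at the other. Dnmt3l, a cofactor without enzyme activity, was above background on 1 array of each group and was not tested. Of 17 tested methyltransferases and methyl-CpG binding proteins, 12 were lower and 5 higher, with a median of -0.09 against 0.01 and 50.9% higher over all genes. Zbtb38, a zinc finger protein that binds methylated CpG, showed no overlap between groups: -0.61, -0.74 and -0.47 with EV against -1.11, -1.40 and -1.04 with WT, a difference of -0.58 ± 0.20 (adjusted p = 0.758). Trdmt1, a tRNA cytosine methyltransferase of the same protein family, was at -0.76 ± 0.35.

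Of 15 demethylation genes tested, 8 were higher and 7 lower, and the median was 0.03 (-0.04 with array median scaling). None of them had an unadjusted p under 0.05, against 5.99% of all genes. Tet1 differed by 0.20 ± 0.38, Tet2 by 0.31 ± 0.30 and Tet3 by -0.31 ± 0.37. A second probe of Tet2 gave -0.12 and one of Tet3 gave 0.24. Tdg, the glycosylase that removes oxidised methylcytosine, was at -0.46 ± 0.27 at its brightest probe, with both other probes of the gene in the opposite direction.

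**Figure D1:**
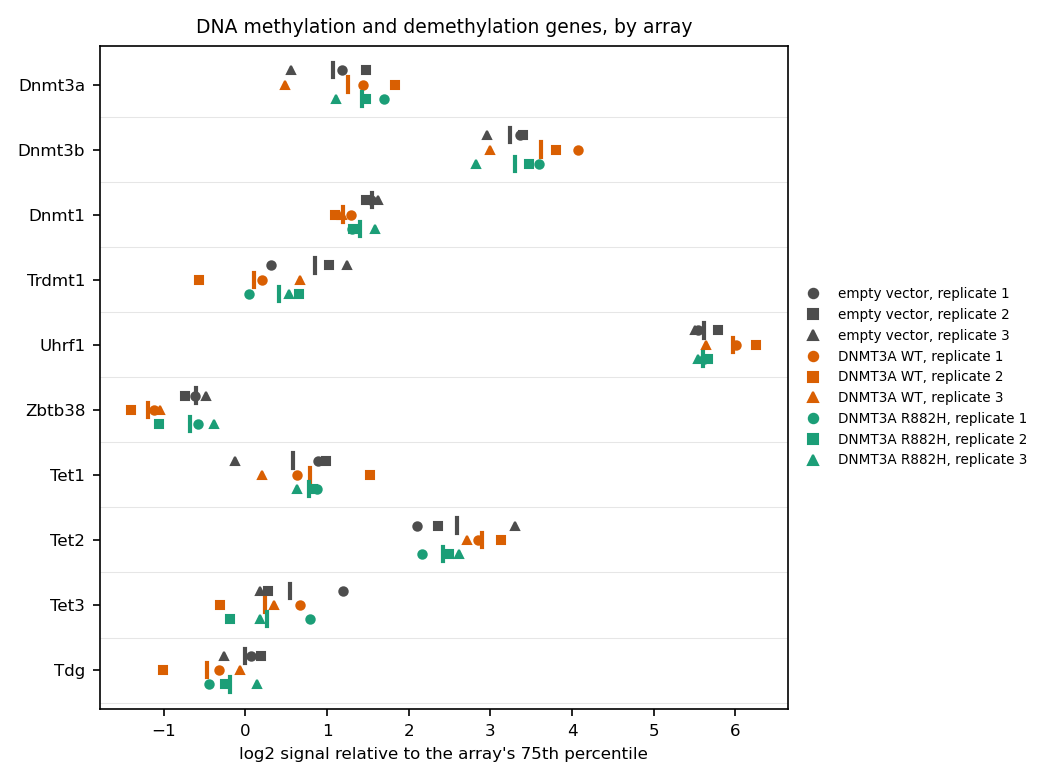
Log2 signal minus that of the 75th percentile of its array (x axis) of 10 DNA methylation and demethylation genes on the 9 arrays, with short lines at the group means and symbols for the replicate number. WT lay below EV on all arrays for Dnmt1 and Zbtb38, and the groups overlapped for Dnmt3a, Dnmt3b, Uhrf1, Trdmt1, Tet1, Tet2, Tet3 and Tdg; levels are not comparable between probes of different genes.

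Imprinted genes and germline genes are silenced by CpG methylation on one allele or on both. Of 33 imprinted genes listed, 19 were tested: 13 were higher with WT and 6 lower, with a median of 0.10, against 50.9% higher over all genes. Only 15 of the 19 were above background on all 6 arrays. EV replicates 2 and 3 each had 2 not above background, and WT replicate 3 had 1. A gene not above background on an EV array passed the filter through WT alone, which favours a higher value with WT. Dlk1, a paternally expressed Notch-like protein, stood at -3.13, -4.37 and -3.69 with EV, above background on 1 of 3 arrays, and at -2.47, -2.43 and -2.61 with WT. The groups did not overlap, and the difference was 1.23 ± 0.29 (adjusted p = 0.668). Magel2, a paternally expressed gene of the Prader-Willi region, was higher by 0.52 ± 0.16, also without overlap. Phlda2, a maternally expressed growth suppressor, was at -0.97 ± 0.40 with no overlap. Mirg, a noncoding RNA of the Dlk1 region, was at 0.32 ± 0.18. Of 32 germline genes that methylation silences in somatic cells, 31 had a probe and 8 were above background in a whole group. Of these 8, 5 were higher and 3 lower, and 7 were above background on all 6 arrays. Tuba3a, a testis tubulin, was higher by 0.38 ± 0.18 and Taf7l, a germ cell transcription cofactor, by 0.17 ± 0.15, both without overlap. The probe named Nanog, a pluripotency factor with many near-identical processed copies, was at -0.19 ± 0.14 and may read those copies.

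Aldh5a1 had the smallest p of all genes. The enzyme, succinate semialdehyde dehydrogenase, breaks down the GABA metabolite in mitochondria. Its signal was 1.33, 1.63 and 1.57 on the EV arrays, 0.01, -0.24 and -0.14 on the WT arrays, and 1.08, 1.27 and 1.74 on the R882H arrays. Every WT array lay more than 1 log2 unit below every EV and R882H array. WT minus EV was -1.63 ± 0.20 (0.323-fold; adjusted p = 0.203, limma), and R882H minus WT was 1.49 ± 0.20 (adjusted p = 0.274), where 0 of 12627 genes (0.0%) had an adjusted p under 0.05. Comparisons with WT and with EV share arrays, so their values are set side by side and are not independent.

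Kcnj5, a subunit of the G protein-gated inward rectifier potassium channel, gave a signal above background in EV and R882H cells alone. It was above background on all EV arrays, at -0.65, -1.58 and -1.75, on no WT array, at -3.44, -6.19 and -4.38, and again on all 3 R882H arrays. The measured difference was -3.34 ± 0.62 (adjusted p = 0.668). Since WT gave no signal above background, the signal was at least 5.33-fold lower, the bound set by the dimmest probes well above background on those arrays. Cyb561, a transmembrane cytochrome that passes electrons from ascorbate, stood at -1.12, -0.70 and -0.25 with EV and at -2.55, -3.35 and -1.84 with WT, a difference of -1.89 ± 0.36 (0.270-fold). Stx11, a syntaxin needed for granule release by cytotoxic lymphocytes, stood at -1.34, -1.74 and -2.11 against -2.96, -4.04 and -2.78. Its difference was -1.53 ± 0.34. In both genes WT replicate 2 was the lowest array.

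The other genes of smallest p that were lower with WT had differences between -1.17 and -0.77, none with overlap. Cuedc1, a CUE domain protein, was at -1.17 ± 0.26. Desi1, a desumoylating isopeptidase, was at -0.97 ± 0.21 with 3 probes of 1 direction. Apol11b, of the apolipoprotein L family, was at -0.94 ± 0.17, and Zfp825, a zinc finger protein that was above background on 2 of 3 WT arrays, at -0.93 ± 0.20. Mterf1b, a mitochondrial transcription terminator, was at -0.85 ± 0.19, although its second probe went the other way. Fam43a was at -0.83 ± 0.17. Carhsp1, an RNA-binding protein that stabilises Tnf mRNA, was at -0.83 ± 0.17, and both of its probes were lower. Cmas, which activates sialic acid for transfer to glycans, was at -0.77 ± 0.17.

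Of the genes of smallest p that were higher with WT, several were dim. Adamdec1, a secreted metalloprotease of the ADAM family, stood at -3.90, -3.39 and -3.54 with EV, above background on 1 array, and at -1.53, -2.30 and -2.13 with WT. The difference was 1.62 ± 0.23 (adjusted p = 0.275), with R882H between the groups at -2.40, -2.45 and -2.59. Lenep, a lens epithelial protein, was higher by 1.79 ± 0.26 and was above background on 1 of 3 EV arrays. Timp1, an inhibitor of matrix metalloproteases, was above background on no EV array and on all WT arrays, with a measured difference of 1.97 ± 0.35 and a signal at least 1.86-fold higher. Septin10, a cytoskeletal GTPase, showed 2.23 ± 0.44 as measured with 1 of 3 EV arrays above background, or at least 3.07-fold with the dim arrays at their bound. Olfr470, named as an odorant receptor, was above background on no EV array and was at least 1.61-fold higher (1.14 ± 0.22 as measured).

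The brighter genes of this group separated as clearly. Rabggta, the alpha subunit of the enzyme that prenylates Rab proteins, stood at -1.72, -2.12 and -2.19 with EV and at 0.05, -0.39 and -1.01 with WT, a difference of 1.56 ± 0.26 (2.95-fold). The R882H arrays lay with WT, 1.40 above EV, and none of them shared a slide with EV. Uros, an enzyme of haem synthesis, was higher by 0.96 ± 0.19, and Nudt7, a peroxisomal hydrolase of coenzyme A, by 0.97 ± 0.21. Zfp503, a zinc finger repressor, stood at -0.88, -0.38 and -0.48 with EV and at 0.83, 0.78 and 0.08 with WT, a difference of 1.14 ± 0.24, and R882H minus WT was -1.40. Ptpn9, a cytoplasmic tyrosine phosphatase, was higher by 0.88 ± 0.18 and Slc25a22, a mitochondrial glutamate carrier, by 0.84 ± 0.18. Pcdhga9 was higher by 0.85 ± 0.18, and genes of its protocadherin cluster share their last exons, so its probes may read several of them. Within the EV slide (WT replicate 1 against 3 EV arrays, which is also the fit with slide as a block) the smallest adjusted p of the 24 genes named for the smallest p was 0.338, and their direction there is fixed by the choice of genes without overlap. Of the 24, 19 kept their direction with the value table. EV replicates 1 and 2 and WT replicate 2 keep their group there, so the choice of genes favours this too.

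**Figure D2:**
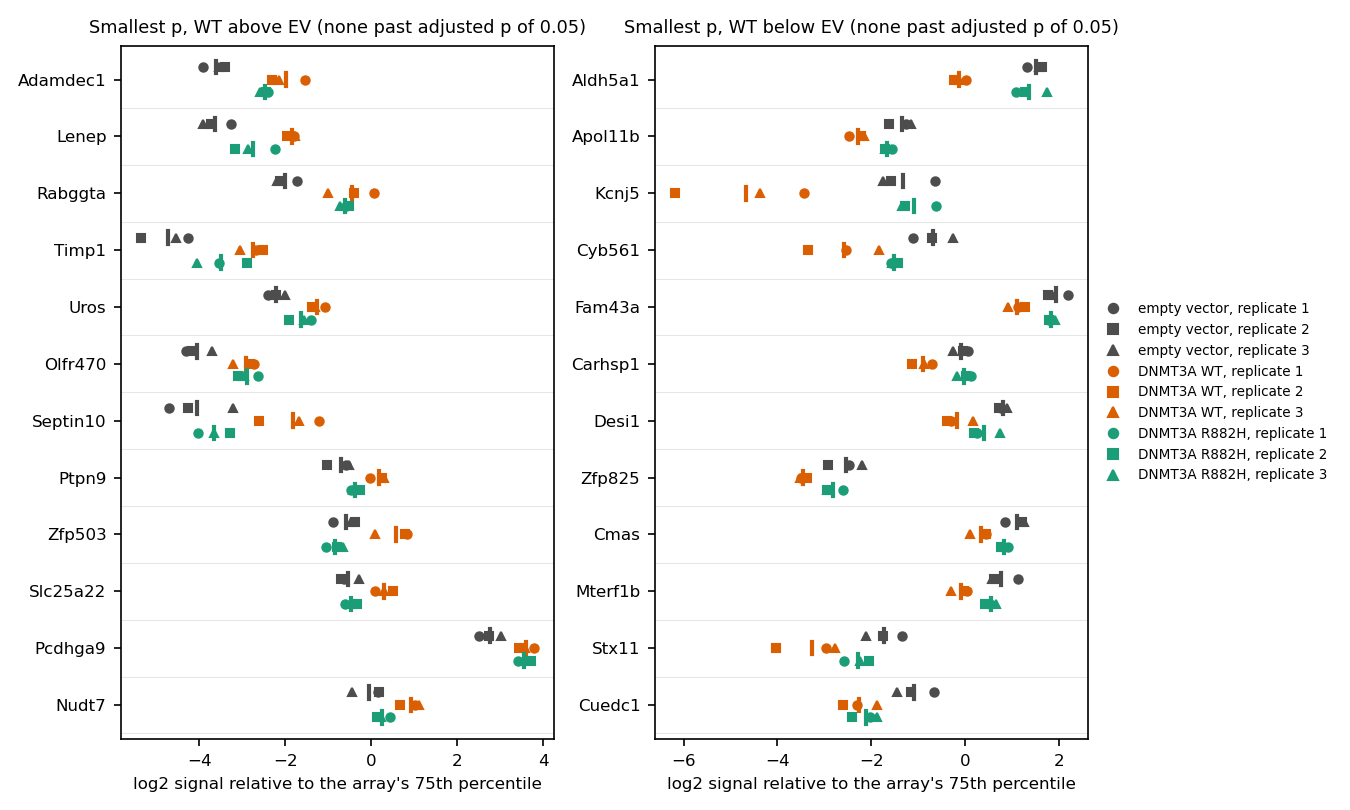
Log2 signal minus that of the 75th percentile of its array (x axes) of the 12 genes of smallest p in each direction on the EV, WT and R882H arrays, with short lines at group means. The choice of genes fixed that EV and WT do not overlap. R882H lay near EV for Aldh5a1, Kcnj5, Fam43a and Carhsp1 and near WT for Rabggta, Olfr470, Pcdhga9 and Cuedc1. No R882H array shared a slide with EV.

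Some genes had a signal above background in a single group. Of the 12627 genes tested, 49 were above background on all WT arrays and no EV array and 4 on all EV arrays and no WT array. On the R882H arrays 14 of the 49 were above background on all 3 and 6 on none. WT replicate 2 had the largest share of probes above background of all 6 arrays (64.8%) and EV replicate 2 the smallest (53.4%). The part of these shares in the counts was not tested. Among genes higher with WT the largest bound was that of Slc25a47, a mitochondrial carrier best known from liver, at -3.24, -4.57 and -5.20 with EV and -1.44, -2.72 and -2.02 with WT, at least 2.68-fold higher. Tspyl5 was at least 2.17-fold higher and rested on WT replicate 2, at -0.96 against -3.09 and -3.50 on the other two. Ppm1n, a protein phosphatase, was at least 2.16-fold higher, Mtss2 at least 2.00-fold and Inmt, an amine methyltransferase, at least 1.97-fold. Lag3, an inhibitory receptor of T and NK cells, was at least 1.96-fold higher and was on no R882H array. Besides Kcnj5, the genes above background with EV alone were Myl2, a muscle myosin light chain (at least 1.95-fold lower with WT), Cys1, a ciliary protein (1.54-fold), and Olfr1145, an odorant receptor (1.44-fold).

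Probes named by a genomic interval and not by a gene gave the only calls. Of 29716 probes that passed the background filter, with or without a gene symbol, 5 (0.0168%) had an adjusted p under 0.05 in limma over all of them, 3 of which rose and 2 fell. All 5 lay in intervals that the array design gives in mm9 coordinates with a strand, and no gene annotation of that build was used here. Probe A_30_P01031236, in chr17:3198868-3394643 on the minus strand, was above background on no EV array (-5.30, -4.10 and -5.46) and on all WT arrays (-1.78, -1.73 and -1.94). It rose by 3.14 ± 0.32 (adjusted p = 0.0352), at least 3.54-fold. Probe A_30_P01029474, in chrX:93157194-93160542 on the minus strand, rose by 2.68 ± 0.26 (adjusted p = 0.0352) from -5.98, -5.69 and -5.54, not above background, to -2.53, -3.46 and -3.18, at least 1.5-fold. Probe A_30_P01020638, in chr15:61984389-62102500 on the minus strand, rose by 1.83 ± 0.18 (3.56-fold; adjusted p = 0.0352) from -3.48, -3.85 and -3.25 to -1.83, -1.71 and -1.54, with 2 of 3 EV arrays above background.

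Probe A_30_P01031496, in chr13:112337405-112356455 on the minus strand, fell by 2.62 on the log2 scale (SE 0.28; 0.162-fold; adjusted p = 0.0384), from 1.16, 0.29 and 0.70 to -1.72, -1.76 and -2.25. The plus strand of the same interval, read by A_30_P01033327, was at -2.78 ± 0.41 without passing the test (adjusted p = 0.234). On the R882H arrays, which shared no slide with EV, the probes of both strands differed from EV by -2.04 and -2.05. Probe A_30_P01028924, in chr7:88668948-88678046 on the plus strand, fell from -3.38, -3.01 and -3.65 to below background on all WT arrays, by 2.20 on the log2 scale as measured and at least 1.41-fold (adjusted p = 0.0352). These calls were not stable: 6 probes were called with the array median, 1 without EV replicate 1, 1 without EV replicate 2, and 0 under each of the other 17 alternatives run on probes, among them slide as a block and the replicate block. Of the 5 called probes, only A_30_P01031496 gave signal over background on every EV and WT array. The other called probes entered the test through 1 group alone. Their standard errors and p-values therefore rest partly on signals not above background. The stricter filter, which asks for such signal on each of the 6 arrays, gave 0 calls. It left those other probes out, so of the 5 it tested A_30_P01031496 alone. Of 7478 interval probes tested, 4039 were higher and 3439 lower, and 7.78% had an unadjusted p under 0.05, against 6.45% of all probes. Of 731 intervals with a tested probe on both strands, 462 had the same sign on both.

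**Figure D3:**
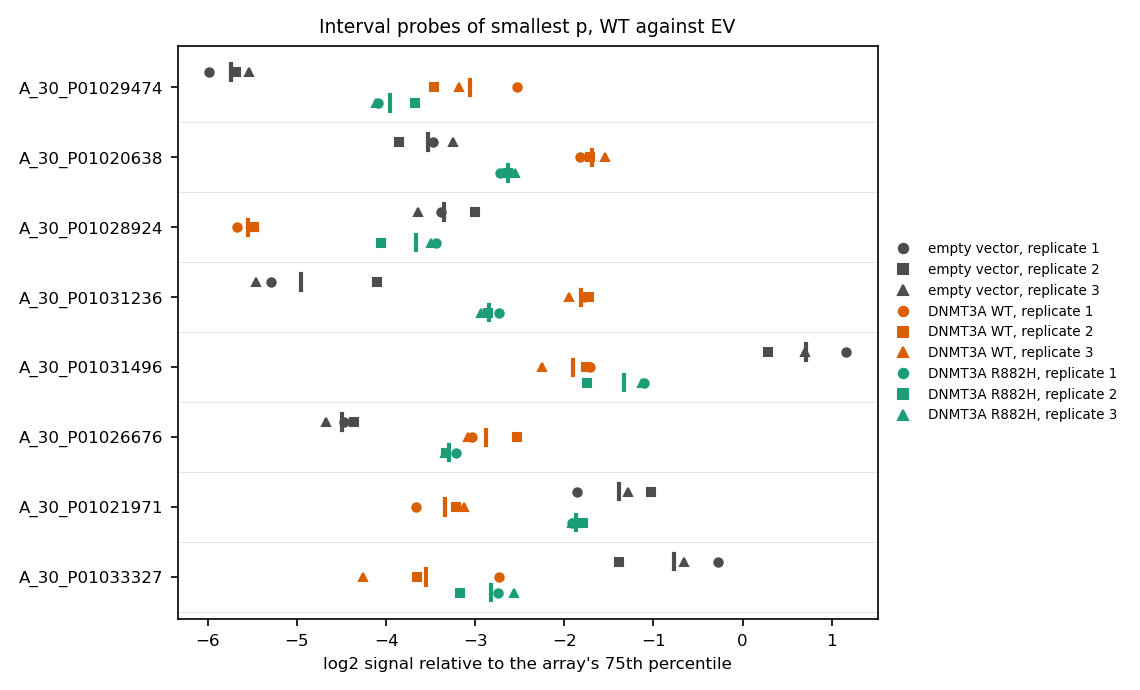
Log2 signal minus that of the 75th percentile of its array (x axis) of the 8 interval probes of smallest p on the EV, WT and R882H arrays, with short lines at group means. The first 5 passed the adjusted threshold over all probes. WT did not overlap EV for any of the 8, which a choice by smallest p favours, and the R882H arrays lay between the groups or near one of them.

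DNMT3A acts on CpG dinucleotides, so the CpG content of the promoters was set beside the differences. The 250 bases before the RefSeq start of 4 leading genes are shown to let the range of CpG content be seen, 5′ to 3′ on the strand of the gene in GRCm38.p6, with each CG in capitals. Aldh5a1 (chr13:24937662-24937911, minus strand) holds 17 CG in these bases and was lower with WT. Ptpn9 (chr9:56994718-56994967, plus strand) holds 26 and was higher. Lenep (chr3:89402651-89402900, minus strand) holds 3 and was higher. Apol11b (chr15:77643287-77643536, minus strand) holds 0 and was lower.
Aldh5a1: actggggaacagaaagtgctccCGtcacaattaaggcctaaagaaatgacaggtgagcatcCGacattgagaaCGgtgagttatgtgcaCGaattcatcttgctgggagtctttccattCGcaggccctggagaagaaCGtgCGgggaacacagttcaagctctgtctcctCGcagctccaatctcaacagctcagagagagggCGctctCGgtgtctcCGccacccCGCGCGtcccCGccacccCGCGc
Ptpn9: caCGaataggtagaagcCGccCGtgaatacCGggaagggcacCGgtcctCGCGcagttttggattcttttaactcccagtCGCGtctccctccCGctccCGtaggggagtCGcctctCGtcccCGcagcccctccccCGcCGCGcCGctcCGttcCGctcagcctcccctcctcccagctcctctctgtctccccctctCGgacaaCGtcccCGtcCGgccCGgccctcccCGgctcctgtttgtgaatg
Lenep: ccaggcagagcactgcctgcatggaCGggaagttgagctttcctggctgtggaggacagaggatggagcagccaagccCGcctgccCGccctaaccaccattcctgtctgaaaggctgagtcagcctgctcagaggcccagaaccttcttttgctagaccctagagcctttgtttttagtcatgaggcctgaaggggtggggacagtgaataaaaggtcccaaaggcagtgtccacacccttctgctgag
Apol11b: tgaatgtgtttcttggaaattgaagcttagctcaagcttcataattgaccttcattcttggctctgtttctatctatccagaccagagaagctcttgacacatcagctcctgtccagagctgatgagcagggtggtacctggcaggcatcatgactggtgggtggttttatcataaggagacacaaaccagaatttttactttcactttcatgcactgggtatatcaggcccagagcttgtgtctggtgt

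The promoters shown hold a CpG-richer and a CpG-poorer example for each direction. They were shown for their range of CpG content, so they cannot tell whether CpG content goes with direction. A window of 300 bases (250 before to 50 after the start) was given for 10121 of the genes tested (80.2%), with a median of 21 CG, and 136 windows held none. In 5 equal bins of CG count, the lowest bin (0 to 9 per window) had a median difference of 0.09, with 61.3% of genes higher and 139 genes higher against 44 lower at an unadjusted p under 0.05. The other bins had medians from -0.02 to -0.01, with 47.9% to 48.9% higher. Genes of CpG-poor promoters were also dim, with a median signal of -0.85 against 0.37 to 1.05 in the other bins. Among genes below the median signal the CpG-poorest bin stood at 0.13 with 66.3% higher, and among genes above it at -0.00, with as many higher as lower. The dimmest bin of 5 over all genes, whatever the promoter, stood at 0.09 with 57.7% higher and the brightest at -0.04 with 43.0% higher. The background filter admitted genes through either group: 12371 were well above background on all 3 WT arrays and 12003 on all 3 EV arrays. A dim gene admitted through WT alone tends to be higher with WT by that choice. The bins were not repeated without such genes.

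The pattern differed between WT arrays. In the CpG-poorest bin the median difference from the EV mean was 0.01 for WT replicate 1, on the EV slide, and 0.11 and 0.16 for WT replicates 2 and 3, on the other slide. In the dimmest bin it was 0.01, 0.13 and 0.14. The median local background of the arrays was 27 to 29 on the EV slide and 24.5 to 26 for WT replicates 2 and 3. Bins of observed over expected CG gave 0.09 in the lowest bin and -0.02 to -0.01 in the others. The part of slide, background, signal and the background filter in this pattern was not tested.

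**Figure D4:**
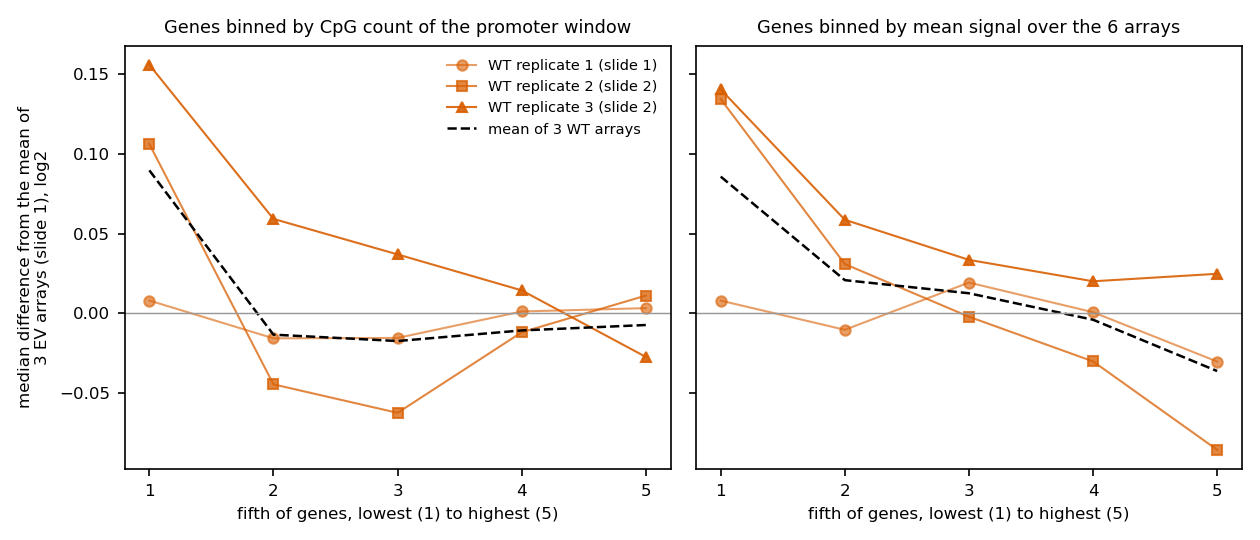
Median over genes of the log2 difference of each WT array from the mean of the 3 EV arrays (y axis) in 5 equal bins of promoter CG count (left) and of mean signal (right), with a dashed line for the WT mean. WT replicate 1, on the slide of the EV arrays, stayed between -0.03 and 0.02 in every bin, and WT replicates 2 and 3 reached 0.11 to 0.16 in the lowest bins.

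Stem cell genes as a group did not lie to one side. Of 34 listed, 28 were tested, 14 higher and 14 lower with WT, with a median of -0.02. By array, the median deviation of the list from the mean of the 6 arrays was 0.13, 0.49 and -0.40 with EV and 0.26, 0.17 and -0.56 with WT, so both replicates 3 were the low ones. On WT replicate 3, 6 of the 28 genes were not above background, and on EV replicate 3 it was 1. Those 6 passed the filter through EV alone, which favours a lower value with WT. Above background on all 6 arrays were 21 of the 28. The same list had a median of 0.73 for R882H minus WT. Krt18, a keratin listed among stem cell genes, showed no overlap: 0.90, 1.30 and 0.90 with EV against 0.05, 0.31 and 0.17 with WT, a difference of -0.86 ± 0.22 (adjusted p = 0.735), and R882H minus WT was 1.45. Nupr1, a stress-induced chromatin protein, was at -1.09 ± 0.42, with overlap. Fgd5, a guanine nucleotide exchange factor used as a stem cell marker, was higher by 0.37 ± 0.18 without overlap. Mecom, a transcription factor required for stem cell maintenance, was at -0.87 ± 0.66. That value rests on WT replicate 3, at -3.62 and not above background, against -1.20 and -0.92 on the other WT arrays and -1.76 to -0.60 on the EV arrays, and without number 3 of both groups it was 0.21. Meis1 was at 0.42 ± 0.49, Hoxa9 at 0.16 ± 0.65, Bmi1 at 0.23 ± 0.21 and Gata2 at -0.15 ± 0.24.

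The surface genes by which LSK cells are sorted and divided gave values of either sign. Kit was at 0.15 ± 0.23 and Ly6a at -0.57 ± 0.39, where WT replicate 3 (2.39) lay with the EV arrays (2.00 to 2.41) and the other two WT arrays at 1.34 and 1.02. Cd34 was at 0.30 ± 0.26 and Flt3, the receptor of lymphoid-primed progenitors, at 0.23 ± 0.36. Cd48, which marks progenitors that have left the stem cell state, was higher on all WT arrays (3.99, 4.12 and 4.27 against 3.98, 3.81 and 3.44), by 0.39 ± 0.18 (adjusted p = 0.836). Thy1, present at low level on stem cells, stood at 1.60, 2.05 and 2.34 with EV and at 1.40, 1.24 and 1.28 with WT, a difference of -0.69 ± 0.20 (adjusted p = 0.735). Of 17 tested surface and sorting genes 12 were higher, and the median was 0.15. Of 17 multipotent and lymphoid-primed progenitor genes 11 were higher, with a median of 0.13, and Mef2c, a transcription factor of lymphoid priming, was at -0.52 ± 0.24.

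Myeloid genes differed more between arrays of one group than between the groups. Of 28 tested granulocyte and monocyte genes, 9 were higher and 19 lower with a median of -0.07. By array the list stood at -0.07, -0.65 and 0.71 with EV and -0.42, -0.17 and 0.52 with WT. Mpo, the myeloperoxidase of primary granules, was at 0.02 ± 0.40, Cebpa at 0.24 ± 0.35 and Spi1 at -0.28 ± 0.24. Irf8, which directs monocyte and dendritic cell fate, was higher by 0.62 ± 0.32 with no overlap, and R882H minus WT was -1.01. Lyz2 was at 0.30 ± 0.17. Of 18 late neutrophil genes on the array 7 were tested, with a median of -0.10; S100a9, a neutrophil calcium-binding protein, ranged from -1.18 to 3.70 with EV and from -3.09 to 0.80 with WT. The highest S100a9 values of both groups were in replicate 3.

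Among macrophage and dendritic cell genes, 8 of 18 tested were higher and 10 lower. Axl, a receptor for dying cells, was above background on all EV arrays and 1 of 3 WT arrays, at -1.95 ± 0.64 as measured and at least 1.90-fold lower with the dim arrays at their bound. Adgre1, which encodes the F4/80 antigen, was above background on 1 of 3 EV arrays, all WT arrays and no R882H array, at 1.21 ± 0.44. The summed level of this list, on a linear scale relative to the 75th percentile, ranged from 59.6 to 80.3 with EV and from 64.8 to 68.8 with WT. The part of a change in the mix of sorted cells in these values was not tested, and in bulk samples fewer cells of a type and less RNA per cell cannot be told apart.

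Beta globin genes were lower with WT. Hbb-bt stood at 3.26, 2.66 and 2.90 with EV and at 2.10, 1.34 and 2.26 with WT, a difference of -1.04 ± 0.31 (adjusted p = 0.737). Hbb-b2 was at -1.05 ± 0.30 and Hbb-bs at -1.67 ± 0.80, above background on 2 of 3 WT arrays. None of the 3 overlapped between groups, which naming by smallest p favours. Their sequences are nearly identical and their probes may read the same transcripts. Of the 19 tested erythroid genes, 3 lay below and 0 above EV on all WT arrays, against 4.52% and 5.63% of all genes. Of 19 tested erythroid genes 4 were higher and 15 lower, with a median of -0.14. EV replicate 1 had by far the highest list value of the EV arrays, 0.76 against -0.23 and -0.01, and the summed level was 57.0 to 99.6 with EV and 58.1 to 64.1 with WT. Gata1, the erythroid and megakaryocyte master factor, was at 0.57 ± 0.38.

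Megakaryocyte genes had a median of -0.00 over 17 tested, 8 of them higher. Gp1ba, a platelet receptor for von Willebrand factor, stood at -2.62, -2.51 and -3.59 with EV and at -1.17, -1.31 and -1.38 with WT, a difference of 1.62 ± 0.43 (3.07-fold; adjusted p = 0.735). Itgb3, a subunit of the platelet fibrinogen receptor, was higher by 0.51 ± 0.17 without overlap. Gp9, which joins Gp1ba in one complex, was at -0.65 ± 0.30, so the complex members did not share a sign. Of 12 mast cell, basophil and eosinophil genes 7 were higher, with a median of 0.11. Il1rl1, the interleukin receptor of mast cells, stood at -0.43, -0.40 and -1.60 with EV and 0.54, 0.02 and 0.28 with WT, a difference of 1.09 ± 0.32. Cpa3, a mast cell protease, was higher by 0.82 ± 0.32 with no overlap, and Il5ra, the receptor of eosinophil progenitors, by 0.56 ± 0.20.

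Of 10 tested B lineage genes 9 were higher, with a median of 0.39, against 50.9% of all genes higher. By array the list stood at 0.07, 0.29 and -0.94 with EV and at 0.38, 0.12 and 0.16 with WT, and EV replicate 3, the low array, also had 3 of the 10 genes not above background. These 3 passed the filter through WT alone, which favours a higher value with WT. The other 7 were above background on all 6 arrays. The list median was 0.06 without EV replicate 3, -0.11 with the arrays whose group is the same in both sources and -0.39 with the value table. Cd22 was at 0.16 ± 0.15 and Vpreb2, the surrogate light chain, at 0.50 ± 0.50. Ms4a1 was above background on none of the 6 arrays. Among 18 T and NK genes 9 were higher, and Cd4 was at 0.25 ± 0.14. Among 11 endothelial and stromal genes 6 were higher, and Pdgfrb, a receptor of mesenchymal cells, stood at 0.86, 0.07 and 0.78 with EV and at 1.35, 1.44 and 1.34 with WT, a difference of 0.81 ± 0.21 (adjusted p = 0.735).

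**Figure D5:**
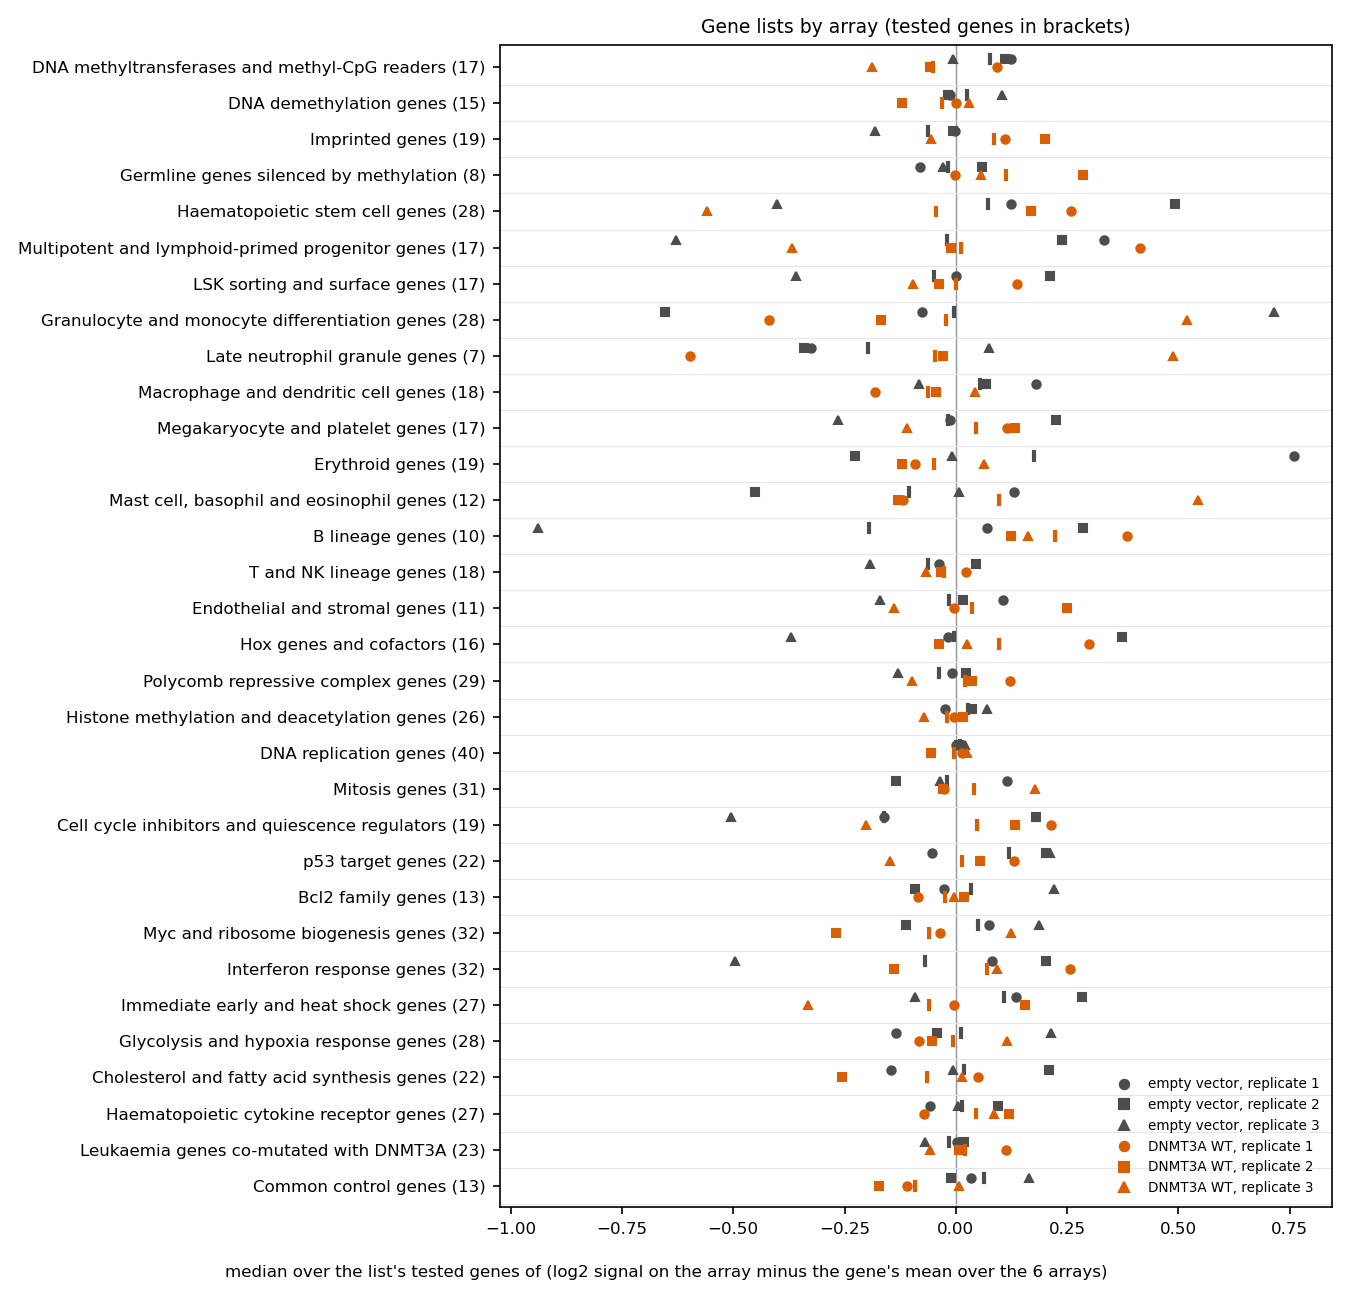
For each of 32 gene lists, the median over its tested genes of the log2 signal on an array minus the gene's mean over the 6 arrays (x axis), for 3 EV and 3 WT arrays, with short lines at group means. In the stem cell, granulocyte and B lineage lists the replicate 3 arrays lay far from the others, EV replicate 3 at -0.94 in the B lineage list.

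Cell cycle inhibitors differed in sign. Cdkn2c, an INK4 inhibitor of Cdk4 and Cdk6, stood at 1.35, 1.83 and 1.07 with EV and at 2.35, 2.98 and 2.32 with WT, a difference of 1.14 ± 0.26 (2.20-fold; adjusted p = 0.668). Cdkn2a, which encodes p16 and p19Arf, was above background on no EV array, all WT arrays and no R882H array, at least 1.71-fold higher with WT. Cdkn1a, the p21 inhibitor, stood at 1.53, 2.21 and 2.29 with EV and at 1.25, 0.84 and 1.18 with WT, a difference of -0.93 ± 0.34 (adjusted p = 0.766), and a second, dim probe of the gene went the other way by 0.58. Cdkn1b was at 0.28 ± 0.31, and Cdkn1c was above background on none of the 6 arrays. Over 19 inhibitors and quiescence regulators the median was 0.08, with 12 higher. Replication genes divided evenly, 20 higher and 20 lower of 40 with a median of -0.00. Rfc2, a clamp loader subunit, was at -0.43 ± 0.16 and Pole2, a polymerase epsilon subunit, at -0.58 ± 0.24. Of 31 mitosis genes 20 were higher with a median of 0.06. Incenp, of the chromosomal passenger complex, was higher by 0.39 ± 0.15 without overlap, and Mki67 was at -0.50 ± 0.24.

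p53 target genes were lower in 14 of 22 cases, with a median of -0.15. Polk, a translesion polymerase, was at -0.71 ± 0.21 at its brightest probe and in the other direction at the second. Aen, an apoptosis nuclease, stood at 3.77, 3.80 and 3.73 with EV and 4.19, 4.07 and 4.14 with WT, higher by 0.37 ± 0.13, and Rrm2b, a ribonucleotide reductase subunit, was higher by 0.64 ± 0.26 at one of its probes. Of 32 Myc and ribosome biogenesis genes 23 were lower, with a median of -0.11. Nolc1, a nucleolar phosphoprotein, went against this with 0.50 ± 0.19 at one probe and the opposite sign at the other, and Nop16 was at -0.57 ± 0.33. Myc was at 0.09 ± 0.27. Of 13 common control genes 12 were also lower, with a median of -0.11, Ywhaz at -0.29 ± 0.14 and Actb at -0.18 ± 0.14. These are bright genes, and the brightest bin of all genes had a median of -0.04.

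Chromatin genes showed small differences. Of 29 Polycomb genes 18 were higher, with a median of 0.10. Ezh2, the histone methyltransferase of the complex that marks silent genes, stood at 2.50, 2.24 and 1.97 with EV and at 2.83, 2.98 and 2.43 with WT, a difference of 0.51 ± 0.21 (adjusted p = 0.801) with a small overlap. Rnf2 and Pcgf6, of the ubiquitin ligase complex, were at -0.39 ± 0.15 and -0.37 ± 0.17, both without overlap. Of 26 histone methylation and deacetylation genes 16 were lower. Kdm6b, a demethylase of the Polycomb mark, was at -0.63 ± 0.27 and Prmt1, an arginine methyltransferase, at -0.70 ± 0.31. Of 16 Hox genes and cofactors 10 were higher with a median of 0.10: Hoxb9 was higher by 0.52 ± 0.15 without overlap, and Hoxa6 was at -0.68 ± 0.32.

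Immediate early and heat shock genes were lower in 18 of 27 cases, with a median of -0.15. Dnajb1, an Hsp40 co-chaperone, stood at 6.62, 6.58 and 6.32 with EV and at 6.01, 5.83 and 5.89 with WT, a difference of -0.59 ± 0.15 (adjusted p = 0.735). Jund, an AP-1 subunit, stood at 7.46, 7.46 and 7.66 against 7.03, 7.03 and 7.17, at -0.45 ± 0.17, and Dusp5, a phosphatase of Erk, was at -0.999 ± 0.45. None of the 3 overlapped between groups, which naming by smallest p favours. Of the 27 genes, 3 lay below and 1 above EV on all WT arrays, against 4.52% and 5.63% of all genes. Interferon response genes were higher in 20 of 32 cases with a median of 0.15, and by array EV replicate 3 was the low one, at -0.50 against -0.14 to 0.26 on the other 5 arrays. Irf1 was at 0.47 ± 0.26 and B2m, the class I light chain, at -0.36 ± 0.22.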

How the data were processed

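RNA of 9 LSK samples (3 EV, 3 WT, 3 R882H) was hybridised in 1 colour (Cy3). The deposited scanner files hold spot intensity (gProcessedSignal, background-corrected by Agilent Feature Extraction 10.10.1.1, per the file headers) and mm9 probe positions. The authors' deposited value table holds log2 values with a median near 0 per array; its background correction and scaling steps are not stated in the labels, and it served as an alternative.

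Spots of a probe were averaged, outlier spots and controls left out, and log2 intensity was set relative to each array's 75th percentile. A probe was tested if well above background on all 3 arrays of WT or EV, and a gene was read by its probe of highest mean signal (27235 probes have 1 symbol, none has several, 28446 have none; 9 symbols were updated). limma 3.58.1 in R 4.3.3 fitted all 9 arrays (lmFit, eBayes, 6 residual degrees of freedom), with Benjamini-Hochberg adjustment over all genes tested. The fit was also run on simulated arrays with independent normal noise. These held no slide or replicate effect, so that run does not bear on such effects here. The number of arrays limits the precision.

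Members and gene lists were chosen with earlier results of these data known. Named were the 12 non-overlapping genes of smallest p in each direction, since none passed, the 6 largest bounds per direction, up to 4 genes of smallest p per list and a panel of 28, without clone and model names. Naming by smallest p favours genes without overlap, which made up 10.2% of all genes tested. Of genes with several promoter windows the one richest in CG was used. At least N-fold bounds set the bright group's mean against, per array, the higher of the dim probe's signal and the lowest signal well above background.

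The labels give the groups the same replicate numbers. Deviations of same-numbered EV and WT arrays correlated at 0.126, 0.257 and 0.334 over genes, each over the limit of 0.1, so a replicate block was run as an alternative. This does not establish that the numbers pair the samples. The main fit left them unpaired, and the differences, standard errors and p-values given for genes come from it. WT replicate 1 correlated more with EV replicate 2 (0.206) than with its own number. Alternatives covered background correction (normexp on gMedianSignal, since gMeanSignal was not in the files used), scaling, filters, probes of a gene, blocks, weights, left-out arrays and the value table. The scan date block was not run because all arrays share 1 date. Some genes are not reported here.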

Additional observations from a re-analysis of the deposited data

How the results depend on the processing

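No gene passed the adjusted threshold in limma under any of 21 alternatives, and the count at an unadjusted p under 0.05 ranged from 519 to 1262. Leaving out 1 array at a time, that count was 615 to 1262, with 336 to 644 genes higher and 279 to 618 lower, the highest without WT replicate 3. With the arrays placed in 1 group by both sources (an alternative chosen after seeing the data) it was 1171, of which 666 lower. With the value table, which changes the grouping and centres each probe, 263 genes were higher. Array median scaling turned the split from 436 higher and 320 lower to 300 and 409, that of genes without overlap from 711 above and 571 below to 468 and 788, and the cause was not tested. Genes whose groups did not overlap numbered 2153 to 3442 with 1 array left out, 4878 without number 3 of both groups and 9342 with the arrays of both sources, since fewer arrays overlap less. Of 5 interval probes called, the count was 6 with the array median, 0 to 1 with 1 array left out, and 0 with normexp, quantile or loess normalization, either filter, the WT and EV arrays alone, either block, weights, the trend, without number 3, the value table or the arrays of both sources. With the replicate number as a block (replicate block), 1067 genes had an unadjusted p under 0.05 and 504 of them were lower, against 756 and 320 in the unpaired main fit. The block ended the call of all 5 interval probes but changed no other call. The scan date block was not run.

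Of the named genes, 76 of 121 kept their direction under every alternative run (for genes chosen without overlap, leaving arrays out cannot turn it), and none passed the adjusted threshold under any. With the value table the difference turned positive for Apol11b 0.14, Zfp825 0.24, Cmas 0.038, Myl2 0.14, Cys1 0.23, Ly6a 0.062, Mecom 0.28, Cdkn1a 0.096, Zbtb38 0.0015, Krt18 0.047, Nupr1 1.08, S100a9 1.61, Axl 0.45, Kdm6b 0.13, Jund 0.067 and interval probe A_30_P01021971 0.043, and negative for Dnmt3a -0.0056, Zfp503 -0.10, Nudt7 -0.23, Slc25a47 -0.59, Inmt -0.73, Lag3 -0.58, Dnmt3b -0.16, Tet1 -0.074, Kit -0.10, Cd34 -0.31, Flt3 -0.58, Cd48 -0.22, Meis1 -0.0048, Hoxa9 -1.38, Cebpa -0.34, Cdkn1b -0.093, Ezh2 -0.13, Myc -0.38, Irf8 -0.25, Il1rl1 -0.33, Cpa3 -0.65, Cdkn2a -0.31, Aen -0.096 and Irf1 -0.099. With the arrays placed in 1 group by both sources it was Flt3 -0.26, Mecom 0.35, Hoxa9 -1.62, Cebpa -0.054, Myc -0.46 and Vpreb2 -0.43. Without number 3 of both groups it was Mecom 0.21, Hoxa9 -0.75, Myc -0.25 and Vpreb2 -0.40. With slide as a block it was Tet3 0.12, Gata2 0.0093, Mpo -0.41 and Mirg -0.041, with the mean of a gene's probes Dnmt3b -0.070 and Tdg 0.35, with array weights Mpo -0.036 and Myc -0.011, and with the array median Mpo -0.041. Leaving out 1 array at a time, the difference ran for Dnmt3a from -0.11 to 0.57, Tet1 from -0.17 to 0.50, Tet3 from -0.53 to 0.010, Flt3 from -0.12 to 0.50, Hoxa9 from -0.61 to 0.66, and for Cebpa from -0.084 to 0.52, Gata2 from -0.40 to 0.051, Mpo from -0.30 to 0.39, Myc from -0.10 to 0.32, Vpreb2 from -0.026 to 0.78. The causes were not tested. Of 32 list medians, 3 kept their sign under every alternative run (histone methylation and deacetylation, Myc and ribosome biogenesis, and control genes), 4 changed it with the array median, which moved list medians by a median of -0.06, and 48 of 672 values moved by more than the spread between arrays.

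The 3 arrays per group and a median standard error of 0.228 limit what could pass. The 49 genes above background with WT alone and the 4 with EV alone give bounds only.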

Other observations

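Of 22 tested cholesterol and fatty acid genes 9 were higher and 13 lower, with a median of -0.10, and 1 lay above and 2 below EV on all WT arrays, against 5.63% and 4.52% of all genes. Fasn, the fatty acid synthase, stood at -3.58, -3.95 and -3.51 with EV, above background on 1 of 3 arrays, and at -2.18, -2.41 and -3.12 with WT, a difference of 1.11 ± 0.27 (adjusted p = 0.723, limma). Cyp51, a sterol demethylase, was at -0.56 ± 0.18 and Scd2, a fatty acid desaturase, at -0.54 ± 0.20, both without overlap. Glycolysis and hypoxia genes were lower in 17 of 28 cases with a median of -0.06, and Pfkl, a phosphofructokinase subunit, was at -0.47 ± 0.25.

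Cytokine receptor genes were higher in 17 of 27 cases with a median of 0.08, and Tgfbr2 was at 0.38 ± 0.22. Genes mutated together with DNMT3A in leukaemia were higher in 15 of 23 cases with a median of 0.04. Of 13 tested Bcl2 family genes 6 were higher, and Bok, a death-promoting member, was at -0.91 ± 0.38. None of these genes passed the adjusted threshold.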
